A study of Drosophila melanogaster with 4 samples.

Results

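Wide Chromator-enriched regions on the autosomal arms 2L, 3L and 3R of Drosophila melanogaster, lying outside dense clusters of such regions, were described from chromatin immunoprecipitation and sequencing (ChIP-seq) of whole embryos. The 4 samples, 2 ChIP samples with the Chromator antibody labelled WR and 2 input samples, all come from the wild-type strain Oregon-R at 14 to 16 hours of development. Enriched regions had been listed for each ChIP sample and once for the set of both, called the combined list here. A wide region outside dense clusters was a combined-list region of 3000 bp or more that was not in a chain of 4 or more regions, a chain being a run of neighbours less than 5000 bp apart. These regions were thus chosen by the width and spacing of the combined list. The rule selected 301 of the 3279 combined-list regions on these arms (9.18%, Wilson 95% interval 8.24 to 10.2) and of 5762 in all. Another 100 regions of 3000 bp or more lay in chains of 4 or more, so 401 regions on these arms reached that width. Arm 2R was not analysed here. Intact embryos hold many cell types, so a region enriched in few cells and one weakly enriched in all cells cannot be told apart.

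Chromator, also called Chriz, is a chromodomain protein found in the interbands of polytene chromosomes, the decondensed stretches between the dark bands. It works in a complex with the zinc finger protein Putzig and is known for its part in keeping interband chromatin open and in the spindle during mitosis. In flies it is commonly mapped at promoters of broadly expressed genes and at borders between chromosome domains. No annotation of the release used for these lists, FlyBase release 5, was used here, so the regions are named by position without genes.

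The wide regions had a median width of 3673 bp (quartiles 3333 to 4215) and ranged from 3003 to 7833 bp. They covered 1.18 Mb, which is 1.56% of the 75.5 Mb of the 3 arms and 16.4% of all region length listed there. Widths were concentrated near the limit, with 114 of 3000 to under 3500 bp, 83 of 3500 to under 4000 bp, 75 of 4000 to under 5000 bp and 29 of 5000 bp or more. The narrowest, which just met the limit, were 3003 bp at 8441196 to 8444198 of 3L (score 1.54) and 3005 bp at 8989898 to 8992902 of 3L (score 1.57). Just under the limit, 2 regions of 2997 bp, at 2598556 to 2601552 of 3L and 10132804 to 10135800 of 3R, scored 0.88 and 1.19. Width and spacing chose the regions, and these widths are therefore a description.

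Scores of the wide regions were mostly above the median of all regions on the 3 arms, and among them greater width did not go with a higher score. Each region carries 1 score, on a log2 scale read from the values, so that a score of 1 is a 2-fold ratio. The median was 0.90 (quartiles 0.68 to 1.15), a ratio of 1.87, with a lowest score of 0.35 and a highest of 1.87. Regions narrower than 3000 bp outside chains had a median of 0.58 (0.46 to 0.90) over 2256 regions. Wide regions in chains had a median of 0.83 (0.66 to 1.01) over 100 regions. Of the wide regions outside chains, 244 (81.1%) scored above 0.63, the median of all regions on the 3 arms. No test was made of these differences, because the score comes from the same enrichment that set the width.

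By width class, median scores were higher in wider regions between 1500 and 3000 bp, but not beyond. Outside chains, the median score was 0.49 for 643 regions under 1500 bp, 0.41 for 390 regions of 1500 to under 2000 bp, 0.80 for 945 of 2000 to under 2500 bp and 1.07 for 278 of 2500 to under 3000 bp. From there it was lower, at 0.97 for the wide regions of 3000 to under 3500 bp, 0.87 for 3500 to under 4000 bp, 0.90 for 4000 to under 5000 bp and 0.94 for 5000 bp or more. Across the 301 wide regions Spearman's rho of score and width was -0.10 and Pearson's r -0.09, against 0.69 and 0.55 across the 2256 narrower regions outside chains. Within the 278 regions of 2500 to under 3000 bp rho was already negative, at -0.13, so the change did not lie at the limit of 3000 bp. These are correlations across regions of 1 list, in which neighbours and libraries are shared, and they are given without a p-value. The small rho of the wide regions had no stable sign, being 0.014 with a minimum width of 3500 bp and 0.030 with 4000 bp. Among the wide regions alone, scores lay closer together in wider classes. The interquartile range was 0.59 at 3000 to under 3500 bp and 0.43 at 3500 to under 4000 bp. It was 0.40 at 4000 to under 5000 bp and 0.27 at 5000 bp or more. Among narrower regions outside chains it was 0.10 under 1500 bp and 0.09 at 1500 to under 2000 bp. From there it rose to 0.37 at 2000 to under 2500 bp and 0.40 at 2500 to under 3000 bp.

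**Figure D1:**
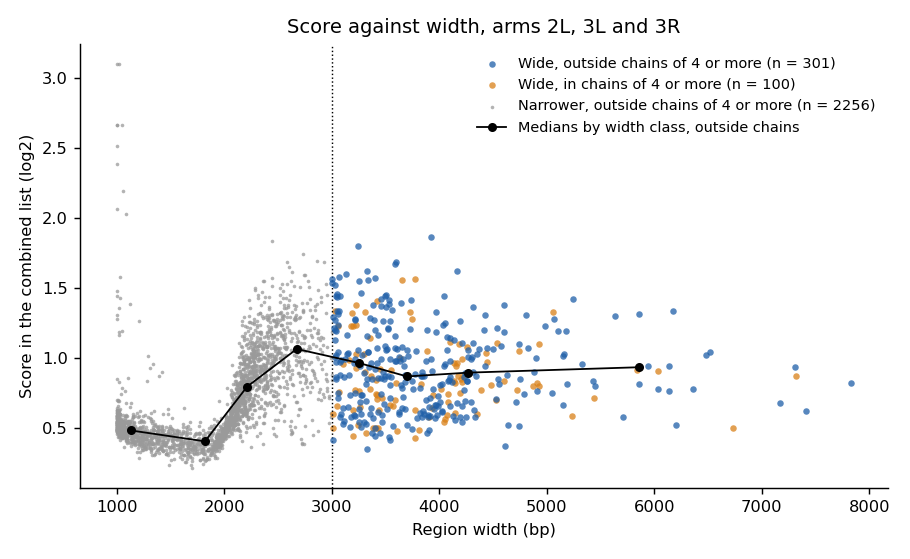
Score in the combined list (log2, vertical axis) against region width (bp, horizontal axis) on arms 2L, 3L and 3R, with each point a region and black circles the medians by width class outside chains; the dotted line marks 3000 bp. The medians reach 1.07 at 2500 to under 3000 bp and lie between 0.87 and 0.97 in the 4 classes of wide regions.

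The strongest wide regions were not the widest. The highest score was 1.87, at 27044180 to 27048100 of 3R (3921 bp), with 1.90 in replicate 1 and 1.87 in replicate 2. The next were 9507862 to 9511100 of 3R with 1.81 (1.84 and 1.89 in replicates 1 and 2), 5979838 to 5983434 of 2L with 1.69 (1.73 and 1.76), 9698162 to 9701750 of 2L with 1.68 (1.70 and 1.72) and 26631186 to 26635350 of 3R with 1.63 (1.69 and 1.61). On 3L the highest was the region at 8989898 named above, whose score of 1.57 compared with 1.84 and 1.59 in replicates 1 and 2. Each of these 6 had 1 region in each replicate list, and their widths ran from 3005 to 4165 bp. Of the 29 wide regions of 5000 bp or more, 1 had a score above 1.38, which the highest-scoring 10% of wide regions exceeded.

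The widest regions scored between 0.63 and 1.05. The widest was 7833 bp at 4871982 to 4879814 of 3R, with a score of 0.83. Replicate 1 listed 2 regions in it and replicate 2 listed 1, of 5351 bp. The next, 7413 bp at 19993158 to 20000570 of 3L, scored 0.63. Replicate 1 held it as 1 region of 7371 bp, covering 99.4% of it, and replicate 2 as 2 regions. A region of 7307 bp at 1328654 to 1335960 of 3L (score 0.94) and one of 7169 bp at 23782946 to 23790114 of 3R (0.68) were each listed as 2 regions by both replicates, as was one of 5941 bp at 13989112 to 13995052 of 3R (0.95). The fifth widest, 6515 bp at 21070236 to 21076750 of 3R (1.05), was 1 region of 5815 bp in replicate 1 and 1 of 6328 bp in replicate 2. The widest on 2L was 6137 bp at 2764964 to 2771100, with a score of 0.77.

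Nearly every wide region was found in both replicates. Of the 301, 293 (97.3%, Wilson 95% interval 94.8 to 98.6) were overlapped by at least 1 bp by a region of each replicate list, 8 by a region of 1 list and 0 by neither. Wide regions in chains gave 99 of 100 (94.6 to 99.8%), and narrower regions outside chains 1211 of 2256 (53.7%, 51.6 to 55.7). The intervals cover counting error only. This gap lay among the narrowest regions, since 266 of 278 regions of 2500 to under 3000 bp outside chains (95.7%, 92.6 to 97.5) and 895 of 945 of 2000 to under 2500 bp (94.7%) were overlapped by both. The combined list was made from the same 2 ChIP samples, so its overlap with them is no independent evidence.

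The 8 wide regions found by 1 replicate had low scores, from 0.35 to 0.66 with a median of 0.44, against a median of 0.91 for the 293 found by both. Replicate 1 alone held 6 and replicate 2 alone 2. The 4 lowest-scoring wide regions were among them. These were 27441182 to 27444506 of 3R (0.35), 9604308 to 9608918 of 3R (0.38), 4331242 to 4334250 of 2L (0.42) and 19062322 to 19065862 of 2L (0.42). In the region at 9604308 the replicate 1 region covered 39.1% of the width. The fifth lowest, 20925306 to 20928832 of 2L (0.44), was found by both.

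The number of replicate regions within a wide region differed with its width, as did the room for them. The narrowest regions on these arms were 1303 bp in replicate 1 and 1301 bp in replicate 2, and 2 of these need 2607 and 2603 bp. The values by width are therefore a description. In 243 of the 301 there was 1 region in each replicate list, in 24 there was 1 in replicate 1 and 2 in replicate 2, in 17 there were 2 in replicate 1 and 1 in replicate 2, and in 9 there were 2 in each. No wide region spanned 3 or more regions of a replicate. At least 1 replicate therefore listed 50 of them (16.6%, 12.8 to 21.2) as 2 regions, against 17 of 100 wide regions in chains (17.0%, 10.9 to 25.5). The share was 0 of 114 at 3000 to under 3500 bp (Wilson upper bound 3.26%), 13.3% (7.56 to 22.2) at 3500 to under 4000 bp, 32.0% (22.5 to 43.2) at 4000 to under 5000 bp and 51.7% (34.4 to 68.6) at 5000 bp or more. The share of 16.6% rests on short gaps, as it was 2.99% when replicate regions less than 500 bp apart were joined. With only replicate 1 or only replicate 2 counted it was 8.64% and 11.0%.

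**Figure D2:**
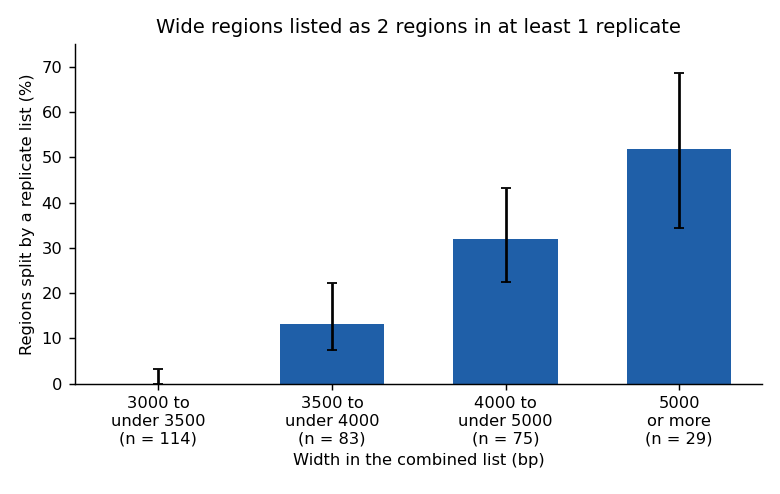
Percent of wide regions outside chains that at least 1 replicate list gave as 2 regions (vertical axis), by width class in the combined list (bp, horizontal axis); bars are shares and error bars Wilson 95% intervals, for counting error only. The share is 0% in the narrowest class and 51.7% in the widest, which has the most room for 2 regions.

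The pieces of these divided regions had about the size of ordinary regions, as 2 pieces in regions with a median width of 4343 bp would. Their median width was 2005 bp (quartiles 1837 to 2215) over 52 pieces in replicate 1 and 2044 bp (1806 to 2345) over 66 in replicate 2, against medians of 2158 and 2116 bp for all regions of these arms in the same lists. The gaps between them were short, with a median of 195.5 bp (quartiles 85.5 to 420) in replicate 1 and 135 bp (51 to 329) in replicate 2. Gaps were under 500 bp in 21 of 26 and 27 of 33 cases. The longest was 1811 bp, in replicate 2, in the region at 2747536 to 2753388 of 2L. A region of the other replicate spanned the gap in 15 of 26 and 24 of 33 cases. The divided regions scored a median of 0.72 (quartiles 0.59 to 0.91) at a median of 4343 bp, against 0.98 (0.75 to 1.20) at 3541 bp for the 243 with 1 region in each list.

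The pieces of a divided region differed in score by varying amounts. The median difference in score between the 2 pieces was 0.24 in each replicate list, and in 11 of the 50 divided regions it was at least 0.5 in 1 of the lists. The largest was 1.13, at 10563954 to 10568552 of 3R, where replicate 2 listed a left piece of 1445 bp with a score of 0.57 and a right piece of 2998 bp with 1.70. Replicate 1 held that region undivided. In the region at 2747536 of 2L both replicates put the higher-scoring piece on the left, with 1.30 and 0.71 in replicate 1 and 1.21 and 0.51 in replicate 2. In the region at 23782946 of 3R the replicates ordered the pieces differently, with 0.55 and 0.97 from left to right in replicate 1 and 1.12 and 0.96 in replicate 2.

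The replicate lists covered most of the width of a typical wide region. A median of 94.6% of the width was covered in replicate 1 (quartiles 79.8 to 97.5) and 89.8% in replicate 2 (68.7 to 96.0). A replicate region of 3000 bp or more lay over 184 wide regions in replicate 1 (61.1%, 55.5 to 66.5) and over 152 in replicate 2 (50.5%, 44.9 to 56.1). Both replicates had one for 125 wide regions (41.5%, 36.1 to 47.2), replicate 1 alone for 59, replicate 2 alone for 27 and neither for 90 (29.9%). The 125 that were wide in both lists had medians of 3917 bp for width and 1.00 for score. The 90 that were wide in the combined list alone were narrower, with a median of 3301 bp, and had a median score of 0.83.

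Scores of undivided wide regions correlated more closely between replicates than their widths did. There were 242 with 1 region in each list that overlapped no other combined-list region. These pairs leave out the 50 divided regions, the 8 found by 1 replicate and 1 with a replicate region that also overlapped another combined-list region. Replicate 1 scored them at a median of 1.03 and replicate 2 at 1.04, and the SD of the difference (replicate 1 minus replicate 2) was 0.16 around a mean of -0.01. The difference was under 0.2 in 205 of the 242 (84.7%), and the largest was 0.73. For scores Pearson's r across these regions was 0.88 and rho 0.87, and for widths 0.69 and 0.67. The rule sets a lower limit on combined-list width and none on score, so these 2 correlations are not on equal terms. The 1202 narrower regions outside chains paired in the same way had a score difference SD of 0.19, with 69.6% under 0.2. Their r was 0.77 for scores and 0.67 for widths, and their rho was closer, at 0.75 and 0.72. Depth is unknown, so how much of either SD is counting error cannot be given.

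Replicate 1 gave the wider region in 150 of the 242 pairs (62.0%). Median widths were 3289.5 bp and 3104 bp in replicates 1 and 2, and the median difference was 55 bp. Replicate 1 was also the wider in 62.7% of the 1202 narrower pairs and in 75.6% of the 82 pairs of wide regions in chains. Edges were matched less often in both kinds of wide region than in narrower ones. A replicate region began and ended within 200 bp of the combined region in 133 of 242 cases in replicate 1 and 101 in replicate 2, against 48 and 33 of 82 for wide regions in chains and 1006 and 926 of 1202 for the narrower pairs. The combined score lay below both replicate scores in 147 of the 242 wide pairs, in 43 of the 82 pairs of wide regions in chains and in 432 of the 1202 narrower ones.

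**Figure D3:**
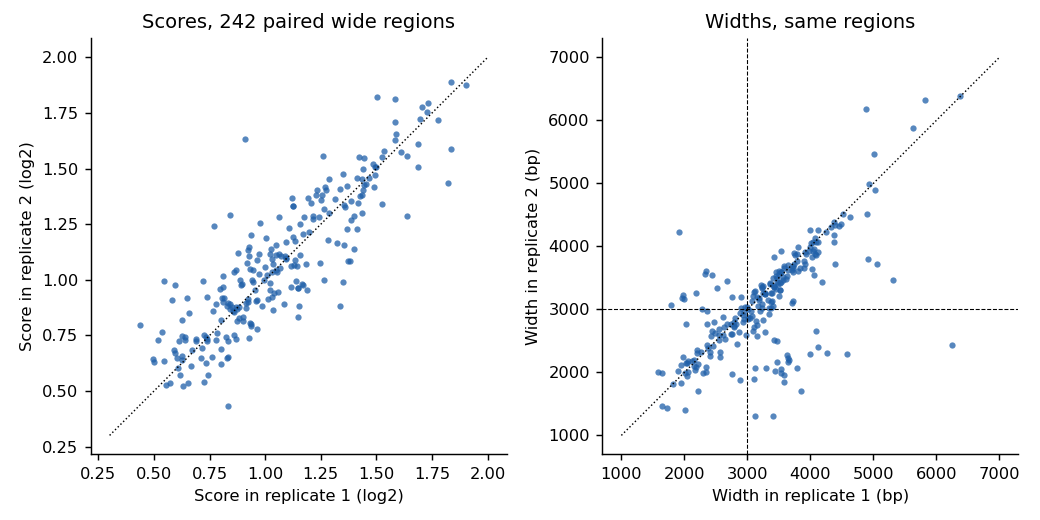
Scores (log2, left) and widths (bp, right) of the 242 paired wide regions in replicate 1 (horizontal axes) and replicate 2 (vertical axes), each point a region; dotted lines mark equal values and dashed lines 3000 bp. Scores lie along the line (r = 0.88), while widths scatter more (r = 0.69) and some fall on different sides of 3000 bp in the 2 replicates. The rule limits combined-list width and not score.

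The same rule applied to each replicate list gave 209 of 2338 regions in replicate 1 (8.94%) and 172 of 2241 in replicate 2 (7.68%). In replicate 1, 184 of the 209 (88.0%) overlapped a wide region of the combined list, and in replicate 2, 151 of the 172 (87.8%). Of the remaining 25 in replicate 1, 22 lay over wide combined regions in chains of 4 or more, as did 16 of the remaining 21 in replicate 2. Between the replicates, 133 regions that met the rule overlapped, which is 63.6% of those of replicate 1 and 77.3% of those of replicate 2. Score and width were related in the replicate lists as in the combined one. Among regions that met the rule, rho was -0.06 in replicate 1 and 0.02 in replicate 2, against 0.85 in each list for narrower regions outside chains.

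The wide regions had similar densities on the 3 arms. There were 87 on 2L, or 3.78 per Mb (exact Poisson 95% interval 3.03 to 4.66), 100 on 3L, or 4.07 (3.32 to 4.96), and 114 on 3R, or 4.09 (3.37 to 4.91). They made up 8.95% of the regions of 2L (Wilson 95% interval 7.31 to 10.9), 9.77% of 3L (8.10 to 11.7) and 8.89% of 3R (7.45 to 10.6). The intervals treat regions as independent. Median scores were 0.88, 0.89 and 0.95 and median widths 3677, 3640 and 3751 bp on 2L, 3L and 3R. The intervals of the arms overlapped, and their median scores differed by less than the interquartile range within an arm, which was 0.51 on 2L, 0.38 on 3L and 0.49 on 3R.

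Along the arms, 74 full windows of 1 Mb held a median of 4 wide regions outside chains, and 2 windows had none, at 11000001 to 12000000 and 17000001 to 18000000 of 2L, which held 33 and 25 combined-list regions in all. The fullest was 18000001 to 19000000 of 3R with 10 of its 40 combined-list regions, followed by the first 1 Mb of 3L with 9 of 47. Counts of wide regions per full window had a mean of 3.99 and a variance of 4.70. Across windows, the number of wide regions and the number of other regions had a Spearman's rho of 0.22 (r = 0.16, 74 windows, neighbouring windows not independent). With the arms cut into 10 equal stretches, wide regions outside chains made up 20 of the 339 regions between 70% and 80% of arm length (5.90%, 3.85 to 8.94) and 29 of the 236 between 90% and 100% (12.3%, 8.69 to 17.1), the lowest and highest of the 10 shares, picked after they were seen and with intervals that overlap.

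**Figure D4:**
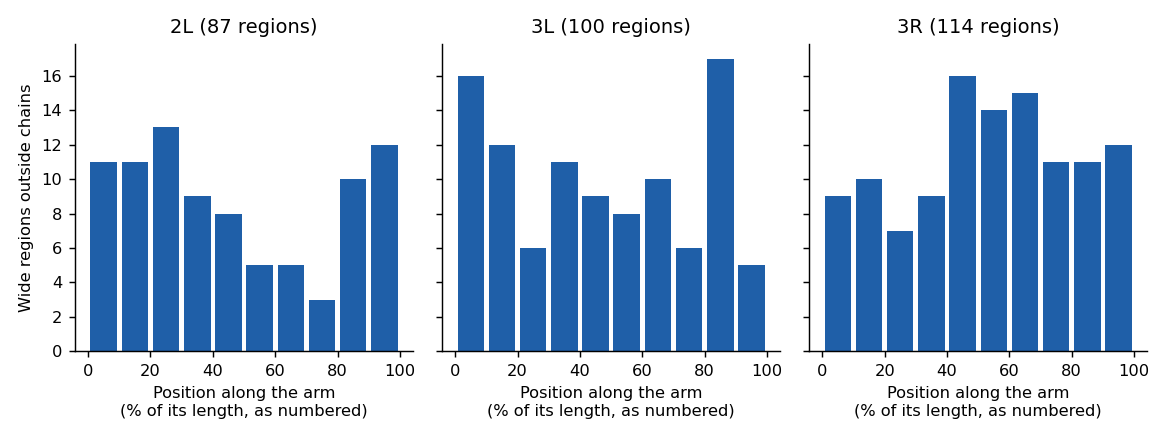
Number of wide regions outside chains (vertical axis) in 10 equal stretches of the arms 2L, 3L and 3R (horizontal axis, percent of arm length as numbered in the release). Counts run from 3 between 70% and 80% of 2L to 17 between 80% and 90% of 3L. These stretches held 73 and 123 combined-list regions in all, so the shares were 4.11% and 13.8%.

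Among the wide regions, 139 (46.2%) stood alone with no region within 5000 bp, 95 (31.6%) belonged to a chain of 2 and 67 (22.3%) to a chain of 3. Of the narrower regions outside chains of 4 or more, 51.9% stood alone. The gap to the nearest region of the list had a median of 4603 bp (quartiles 1663 to 8555) for wide regions and 5297 bp (1753 to 13159) for the narrower ones. A neighbour less than 500 bp away was seen for 17 wide regions (5.65%) and for 8.02% of the narrower ones. Since the rule limits the gaps, these values are a description. The most isolated wide region by this gap was at 24528014 to 24531446 of 3L, near the end of that arm as numbered, with 114 kb to its nearest neighbour. Its gap was measured to the left only, as no combined-list region followed it on 3L. It had a combined-list score of 0.86, and 0.92 and 0.90 in replicates 1 and 2. Wide regions that stood alone had a median score of 0.94, those in chains of 2 had 0.90 and those in chains of 3 had 0.84, with overlapping quartiles (0.68 to 1.11, 0.72 to 1.19 and 0.67 to 1.11).

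**Figure D5:**
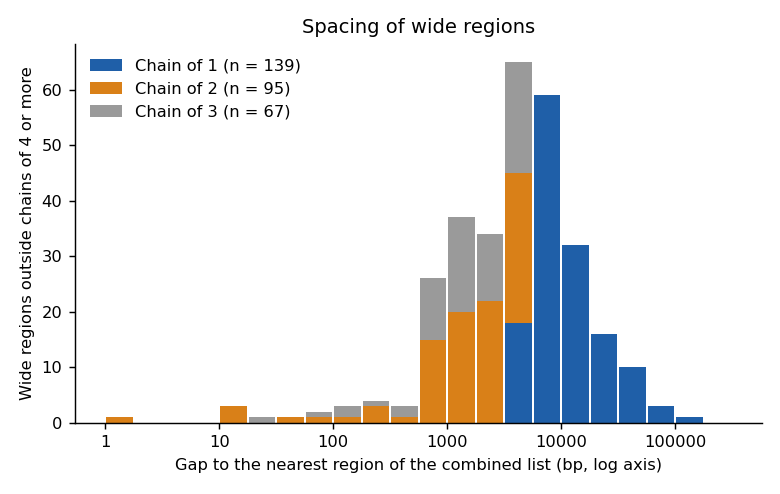
Number of wide regions outside chains of 4 or more (vertical axis) by the gap to the nearest combined-list region (bp, log horizontal axis), stacked by the size of the chain the region belongs to. The median gap is 4603 bp, and regions that stand alone lie at 5000 bp or more by construction.

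Of 298 pairs of consecutive wide regions, 10 were less than 5000 bp apart and 43 less than 20 kb, with a median distance of 153 kb (quartiles 50.6 to 368). The longest stretch without one was 1776 kb on 2L, from 16828151 to 18604127, which held 43 other regions. The closest pair lay 17 bp apart on 2L. Its left region, 22466174 to 22469530, scored 0.60 and its right region, 22469548 to 22472890, scored 0.94. In replicate 1 the left region was 3119 bp and the right 3347 bp, and in replicate 2 they were 1308 and 3019 bp. Other close pairs lay 779 bp apart on 2L, from 15746024 to 15753234 (scores 0.74 and 0.88), and 1069 bp apart on 3L, from 18609056 to 18616828 (0.54 and 1.20). In the pair on 3L, replicate 2 lacked the left region.

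Where a chain of 2 or 3 held exactly 1 wide region, that region usually had the chain's highest score. This was so in 89 of 136 such chains (65.4%, 57.1 to 72.9), namely 60 of 85 chains of 2 and 29 of 51 chains of 3. In each chain 1 of the 2 or 3 regions had to score highest, and the wide region was compared only with narrower ones. The score comes from the same enrichment that set the width, so these shares are a description. The wide regions of these chains had a median score of 0.90, against 0.64 for their 187 narrower neighbours, whose median width was 2137 bp. Of these neighbours 67.4% were overlapped by both replicates. Narrower regions that stood alone had a median score of 0.54, and 44.5% of them were overlapped by both. Width was not matched between these sets. Of all narrower regions outside chains, 0% of 643 under 1500 bp were overlapped by both. This share was 12.8% of 390 at 1500 to under 2000 bp and 94.7% of 945 at 2000 to under 2500 bp. Whether neighbours of wide regions differ from single regions of like width was not tested.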

How the data were processed

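Chromator was mapped by ChIP-seq with 2 ChIP and 2 input samples. Fixation was in 1.8% formaldehyde, per the labels' protocols. The submitters' processing notes name Bowtie 0.12.7. Coordinates are those of FlyBase release 5, per the file headers. The sources used here do not name the region caller or its threshold, nor say how the combined list was made. The deposited scores are on a log2 scale, read from the values. As powers of 2, 5758 of 5762 combined-list scores were ratios of whole numbers times 1 constant (relative tolerance 1e-09, denominators up to 3000). The constant was searched for with these scores. Of 3000 random numbers, 0.7% were such ratios with no constant fitted, so the 2 shares are not on equal terms. No other base was tested. Read totals are not in the lists, so depth is unknown.

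Chains were built on the combined list, and overlap meant 1 bp or more. Intervals of shares are Wilson 95% intervals and those of densities exact Poisson, both for counting error only. No significance test was run: width and spacing chose the regions, the score comes from the same enrichment, and with 2 ChIP samples there is no test across samples. Whether the replicates are separate embryo collections is not stated in the labels. The regions and comparisons were chosen with earlier results of these data known. Regions named are the 5 widest, 5 highest-scoring and 5 lowest-scoring, the widest and highest-scoring per arm, the 3 with most replicate regions, the 2 nearest the width limit on each side, the 3 closest pairs and the most isolated. Other divided regions named, and windows and stretches, were chosen after their values were seen. The gene table at hand has Release 6 coordinates and was not used. The steps were run with scipy 1.17.1, pandas 2.3.3 and numpy 2.4.6 under Python 3.11.15 and were tested on simulated lists. Figures were drawn with matplotlib 3.10.9.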

Additional observations from a re-analysis of the deposited data

How the results depend on the processing

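Of 68 alternative values for 8 results, 47 stayed within the main 95% interval or, for the number of regions, within 1.5 times. The number of wide regions, 301, was 579, 187 and 104 with a minimum of 2500, 3500 and 4000 bp, and ran from 172 to 209 when the rule was applied to each replicate list in place of the combined list. With those same 3 minimums the share listed as 2 regions by a replicate, 16.6%, was 8.81%, 26.7% and 37.5%. It was 2.99% when replicate regions less than 500 bp apart were joined, and from 8.64% to 11.0% with 1 replicate left out, which by construction removes divided regions. Spearman's rho of score and width, -0.10, was -0.24 at 2500 bp and 0.030 at 4000 bp, so its sign is not settled, and the median score was 0.99 at 2500 bp. The share overlapped by both replicates, 97.3%, was 91.7% when 50% of the width had to be covered and 99.6% in the upper 50% of scores; with either replicate alone it ran from 98.0% to 99.3%. The median share of width covered, 89.5% as the mean of both replicates, ran from 89.8% to 94.6% with 1 left out. The median gap of 4603 bp was 3979 bp and 5531 bp with chain gaps under 3000 and 10000 bp, and 5896 bp and 3979 bp with chains of 3 or more and 5 or more left out, as the rule sets it. The density on 3R over 2L, 1.08, stayed from 0.99 to 1.27 in the 7 alternatives run. No paired analysis was possible because no test was run and the lists used here are those of the ChIP samples, so the shared replicate numbers of ChIP and input give nothing to pair.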

Other observations

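Wide regions held a larger share of the highest replicate scores than of all replicate regions. Of the 100 highest-scoring regions of the 3 arms, 31.0% in replicate 1 and 32.0% in replicate 2 lay in wide regions outside chains, against 13.9% of 2338 and 14.6% of 2241 regions in all, with no test made. Wide regions were chosen by width in a list from the same 2 ChIP samples, so these shares are a description. High replicate scores were not particular to them. For regions of 2500 to under 3000 bp outside chains, the highest overlapping replicate score had medians of 1.13 and 1.11 in replicates 1 and 2. For wide regions outside chains these medians were 0.99 and 1.00. In the combined list 26 of the 100 highest scores on these arms were wide regions outside chains, which made up 9.18% of the 3279 regions. Another 58 were narrower regions outside chains, which made up 2256 of the 3279. Of these 58, 13 were overlapped by neither replicate list, against 33.6% of all narrower regions outside chains. Of the 50 widest regions on the 3 arms, 38 were outside chains of 4 or more, a share close to the 301 of 401 among all regions of 3000 bp or more.

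A few wide replicate regions lay where the combined list had narrower ones. Of the regions that met the rule in a replicate list but lay off the wide regions, 3 in replicate 1 and 5 in replicate 2 overlapped only narrower combined-list regions, and 2 in each list spanned 2 of these. One was at 7233500 to 7238051 of 3L, 4552 bp wide with a score of 0.95 in replicate 1, and another at 13380136 to 13384179 of 3L, 4044 bp wide with 0.84 in replicate 2. These positions were chosen after their values were seen.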
